A study of Mus musculus with 5 samples.

Results

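The genes described here encode enzymes and carriers of the tricarboxylic acid (TCA) cycle, of glutamine and glutamate use and of 2-hydroxyglutarate removal. They were chosen by symbol from a list of 28, and all 28 were found among the 11564 genes of the authors' table of normalized counts. The study sequenced RNA of CD8 T cells sorted from mice; these lymphocytes kill cells that are infected or cancerous. The libraries were 3 labelled PHD2-deltaT, described as CD8 T cells with a PHD2 knockout, and 2 labelled wild type (WT). How PHD2 was removed, the strain and age of the mice, any culture or treatment, and whether each library came from its own animal are not stated in the labels. The p-values therefore speak only of the spread among these 5 libraries, and that spread may be technical.

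PHD2, the product of Egln1, hydroxylates the HIF transcription factors so that they are degraded. The reaction takes oxygen and 2-oxoglutarate, an intermediate of the TCA cycle, and releases succinate, the product of a later step of the same cycle. Cells make 2-oxoglutarate from citrate through isocitrate or from glutamine through glutamate. A relative of 2-oxoglutarate, 2-hydroxyglutarate, competes with it at enzymes of the PHD kind, and CD8 T cells are known to accumulate one of its mirror forms when HIF is active. In many cell types HIF is known to raise glycolytic enzymes and to hold pyruvate back from the mitochondrion.

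Egln1 read 5447, 4327 and 4993 normalized counts in the libraries labelled PHD2-deltaT, against 1927 and 2182 in WT. All 3 values labelled as knockout lay above both WT values, so the total RNA of Egln1 was not lower in the libraries so labelled. The gene-level value covers every exon and cannot separate deleted from kept exons, so it is no check of the deletion, and each direction below is that of the libraries so labelled. Each library's normalized counts added up to 19593220 at least and 20253007 at most. Behind them stood an inferred 12925631 to 15382184 reads in PHD2-deltaT and 10818534 to 14710029 in WT. Of 6 CD8 T cell markers all were in the table, summing to 59326 to 61152 in PHD2-deltaT and 60477 to 65291 in WT. Among them 3 read lower in every PHD2-deltaT library than in either WT library, which held for 14.5% of all genes tested. They were Cd3e, Cd3g and Trac, with log2 fold changes of -0.15, -0.12 and -0.16. The groups of Cd3d, Cd8a and Cd8b1 overlapped, and 0 of the 6 were called by the test described below. Of 21 markers of other cell types 5 were in the table: Cd79b of B cells, Foxp3, Itgax, Xcr1 and Klrb1c. Their summed levels were low, with Cd79b at 165 to 208 in PHD2-deltaT and 144 to 148 in WT and the dendritic pair Itgax and Xcr1 at 90.2 to 107 in PHD2-deltaT and 47.3 to 61.4 in WT. Klrb1c summed to 11.0 to 21.3 in PHD2-deltaT and 4.03 to 5.94 in WT, and Foxp3 to 40.5 to 45.1 in PHD2-deltaT and 32.2 to 38.6 in WT. Itgax alone had 82.4, 98.3 and 81.9 in PHD2-deltaT, against 39.3 and 43.6 in WT. It was called higher by the test described below (log2 fold change 1.06, limma adjusted p = 0.00752), and Xcr1 was not (log2 fold change -0.04). Of these 5 markers of other cell types, all but Xcr1 read higher in every PHD2-deltaT library than in either WT library. This held for 1842 of the 11534 genes tested. Foxp3, Cd79b and Klrb1c were not called (limma adjusted p = 0.706, 0.291 and 0.189). The part of other cell types in the values below was not tested.

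RNA of the TCA cycle, glutamine and 2-hydroxyglutarate genes was nearly level between genotypes. All 28 passed the filter on low values and 0 were called, where 2.97% of the 11534 genes tested were called higher and 1.02% lower (limma with a mean-variance trend on log2(normalized count + 1), Benjamini-Hochberg adjusted p under 0.05). Their log2 fold changes, PHD2-deltaT minus WT, ran from -0.19 for Idh1 to 0.30 for Mpc1, with a median of -0.03 against -0.01 over all genes tested. The median size of the change, sign left out, was 0.06 for the members, 0.10 over all genes tested and 0.07 over the 4559 genes that averaged 1000 normalized counts or more. In the authors' deposited table the smallest FDR of a member was 0.28, for Mpc1, and 0 of 28 were under 0.05 against 3.95% of the 11339 genes with an FDR.

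For each gene the 95% interval of the fold change shows what difference the libraries still allow. In 27 of 28 members the whole interval lay inside a 1.5-fold difference either way. Over all genes tested this held for 75.1%, and among genes with a mean of at least 1000 for 96.7%, so the members' share was near that of genes of like abundance. The exception was Idh1, whose interval reached down to -0.59. At an unadjusted p under 0.05 there was 1 member, Mpc1, against 15.0% of all genes tested.

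**Figure D1:**
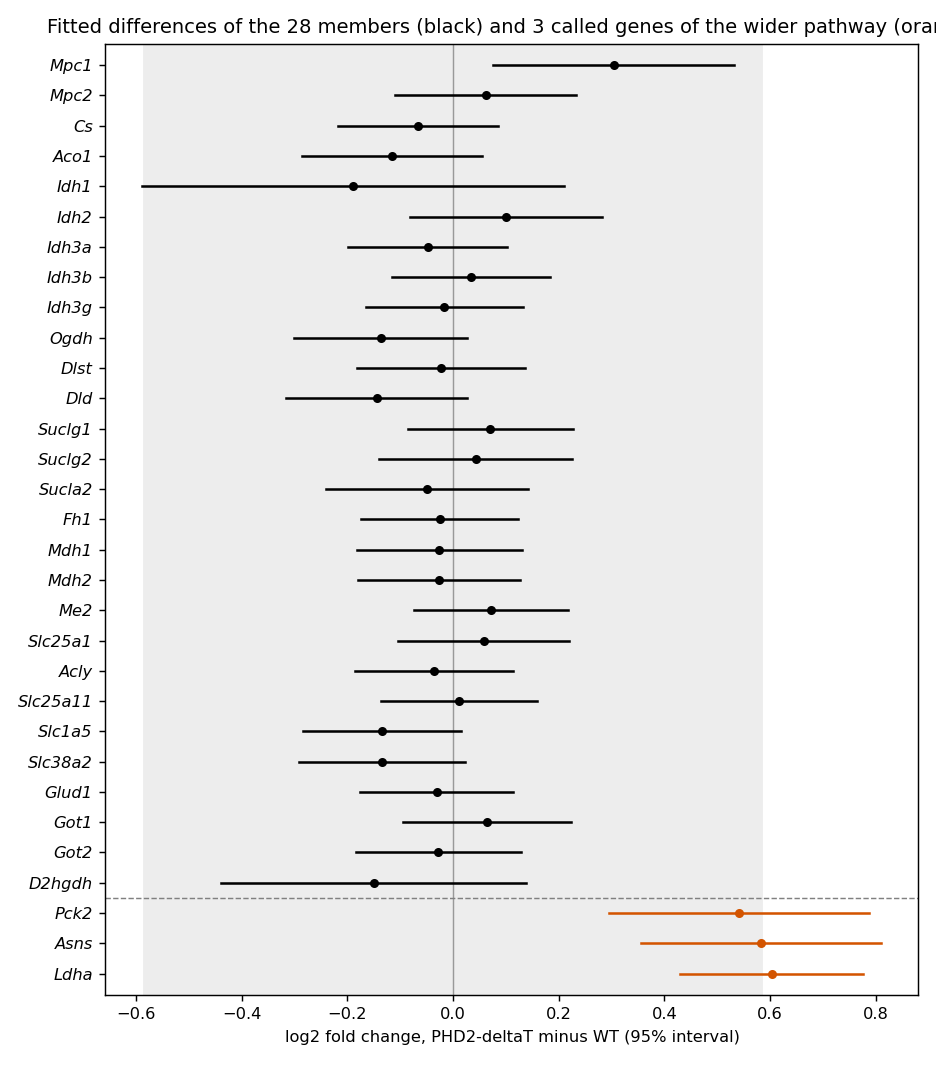
Log2 fold change (PHD2-deltaT minus WT, x axis) of each member with its 95% interval from limma, in black, and of Pck2, Asns and Ldha, called genes of the wider pathway, in orange. Grey marks differences under 1.5-fold; 27 of the 28 black intervals lie inside it and that of Idh1 ends at -0.59.

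Pyruvate enters the mitochondrion through a carrier made of MPC1 and MPC2. Mpc1 (ENSMUSG00000023861; mm10 chromosome 17, 8282904 to 8297661, plus strand, 8 exon blocks) had 413, 459 and 435 normalized counts in PHD2-deltaT libraries, against 335 and 371 in WT. All 3 PHD2-deltaT values lay above both WT values. The means were 436 ± 23.2 (SD, n = 3) in PHD2-deltaT and 353 ± 25.0 (SD, n = 2) in WT, which gives a log2 fold change of 0.30 ± 0.11 (SE) and an interval of 0.08 to 0.53. It did not pass over all genes tested (limma, adjusted p = 0.152). Antisense gene 4930506C21Rik covers 23.1% of the exon bases of Mpc1, and no source here says whether counting used strand, so reads of both may be mixed. Mpc2 overlapped between groups at 1005, 1070 and 1068 in PHD2-deltaT, against 988 and 1019 in WT (log2 fold change 0.06). Citrate synthase (Cs), which joins acetyl-CoA to oxaloacetate, averaged 8678 ± 409 in PHD2-deltaT and 9080 ± 292 in WT (SD, n = 3 and 2), and its groups overlapped too.

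Isocitrate is made by aconitases and turned into 2-oxoglutarate by the isocitrate dehydrogenases. Aco1, the cytosolic aconitase that also acts as the iron-regulated RNA-binding protein IRP1, had 1358, 1307 and 1217 normalized counts in PHD2-deltaT libraries, against 1440 and 1363 in WT. Every PHD2-deltaT value lay below both WT values, but by a log2 fold change of -0.12 with an interval of -0.29 to 0.05. Mitochondrial NAD-linked isocitrate dehydrogenase has 3 kinds of subunit, from Idh3a, Idh3b and Idh3g. Their log2 fold changes were -0.05, 0.03 and -0.02, and the groups overlapped for each.

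The NADP-linked enzymes are IDH1 in the cytosol and IDH2 in the mitochondrion, and mutant forms of both make 2-hydroxyglutarate in human tumours. Idh1 (ENSMUSG00000025950; mm10 chromosome 1, 65158616 to 65186500, minus strand) was the scarcest member, with 97.1, 89.2 and 75.9 normalized counts in PHD2-deltaT libraries, against 95.6 and 103 in WT. The groups overlapped, and the inferred reads of 49 to 76 per library carry a counting error of up to 14.3%. Idh2 had 1099, 964 and 1070 in PHD2-deltaT against 956 and 990 in WT, also overlapping (log2 fold change 0.10, interval -0.08 to 0.28).

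The oxoglutarate dehydrogenase complex burns 2-oxoglutarate to succinyl-CoA and is built from Ogdh (the oxoglutarate-binding subunit), Dlst (the transferase) and Dld (a dehydrogenase shared with the pyruvate complex). Ogdh had 8124, 9019 and 7884 normalized counts in PHD2-deltaT libraries, against 9543 and 8789 in WT. Dld had 2447, 2488 and 2231 in PHD2-deltaT, against 2464 and 2822 in WT. For both genes 2 of the 3 PHD2-deltaT values lay below both WT values and the remaining one lay between them. The log2 fold changes were -0.14 for Ogdh, -0.14 for Dld and -0.02 for Dlst, and none of the 3 passed (limma, adjusted p = 0.446, 0.445 and 0.94). The intervals reached down to -0.30 for Ogdh and -0.32 for Dld, and a drop of 1.5-fold lies outside both.

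Succinyl-CoA is split to succinate by a ligase in which Suclg1 pairs with a nucleotide-specific partner, Sucla2 for ATP or Suclg2 for GTP. Log2 fold changes were 0.07 for Suclg1, 0.04 for Suclg2 and -0.05 for Sucla2. Sucla2 had 1649, 1724 and 1469 normalized counts in PHD2-deltaT against 1538 and 1806 in WT, a spread within each genotype wider than the difference between the means. After succinate come fumarate and malate, handled by fumarase (Fh1), mitochondrial malate dehydrogenase (Mdh2) and its cytosolic form (Mdh1). All 3 had a log2 fold change of -0.03, with overlapping groups and intervals no wider than -0.18 to 0.13. Mdh2 (mm10 chromosome 5, 135778480 to 135790398) had 11565, 12262 and 11465 in PHD2-deltaT, against 12444 and 11527 in WT.

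Me2, the mitochondrial malic enzyme that returns malate to pyruvate, had 3673, 3702 and 3487 normalized counts in PHD2-deltaT libraries, against 3418 and 3467 in WT. Its PHD2-deltaT values lay above both WT values by a narrow margin, and the log2 fold change of 0.07 had an interval of -0.07 to 0.22.

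Citrate leaves the mitochondrion through Slc25a1 and is cleaved to acetyl-CoA by Acly, the enzyme that feeds lipid synthesis and histone acetylation. Slc25a1 had 2065, 2326 and 2233 normalized counts in PHD2-deltaT libraries, against 2172 and 2066 in WT. Acly had 10809, 10811 and 11605 in PHD2-deltaT, against 11442 and 11250 in WT. Neither gene's groups separated, with log2 fold changes of 0.06 and -0.04. The oxoglutarate and malate carrier Slc25a11 was the steadiest member, at 2231, 2212 and 2191 in PHD2-deltaT, against 2209 and 2181 in WT. Its coefficient of variation over the 5 libraries was 0.895%, where the members had a median of 5.06% and genes with a mean of at least 1000 a median of 5.97%. Mpc1 varied most, at 12.4%.

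Glutamine is imported by Slc1a5 (ASCT2) and Slc38a2 (SNAT2). Slc1a5 (mm10 chromosome 7, 16781340 to 16798274) had 6632, 7095 and 6597 normalized counts in PHD2-deltaT libraries, against 7664 and 7207 in WT. Slc38a2 (mm10 chromosome 15, 96687392 to 96699730) had 3598, 3689 and 3373 in PHD2-deltaT, against 3708 and 4094 in WT. Both carriers read lower in every PHD2-deltaT library than in either WT library, each with a log2 fold change of -0.13. The standard errors were 0.07 for both, the intervals -0.28 to 0.02 and -0.29 to 0.02, and neither passed (limma, adjusted p = 0.403 and 0.439).

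Glutamate dehydrogenase (Glud1) and the aspartate aminotransferases (Got1 in the cytosol, Got2 in the mitochondrion) connect glutamate with 2-oxoglutarate. Glud1 averaged 5483 ± 191 in PHD2-deltaT and 5600 ± 42.7 in WT (SD, n = 3 and 2). The log2 fold changes were -0.03 for Glud1, 0.06 for Got1 and -0.03 for Got2, and all 3 pairs of groups overlapped. D2hgdh, the mitochondrial dehydrogenase that oxidizes D-2-hydroxyglutarate back to 2-oxoglutarate, had 272, 208 and 240 normalized counts in PHD2-deltaT libraries, against 257 and 272 in WT. The lowest values were in PHD2-deltaT replicates 2 and 3, but replicate 1 lay within the WT values, and the interval of the log2 fold change was -0.44 to 0.14 around -0.15.

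In all, 2 members read higher in every PHD2-deltaT library (Mpc1 and Me2) and 3 lower (Aco1, Slc1a5 and Slc38a2). That is 5 of 28, where 30.5% of all genes tested had groups that did not overlap. PHD2-deltaT replicate 3 was the lowest of the 5 libraries for 17 of the 28 members, and its median deviation from the members' means was -0.07 on the log2 scale, against 0.01 and 0.05 in the other PHD2-deltaT libraries and 0.01 and 0.00 in WT. Over all genes the median deviation of each library lay at 0.00, near where scaling between libraries sets it. As a share of each library's total, the 28 members together took 0.542%, 0.541% and 0.514% in the PHD2-deltaT libraries, against 0.548% and 0.544% in WT. Without PHD2-deltaT replicate 3 their median log2 fold change was 0.01, and again 0 were called.

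**Figure D2:**
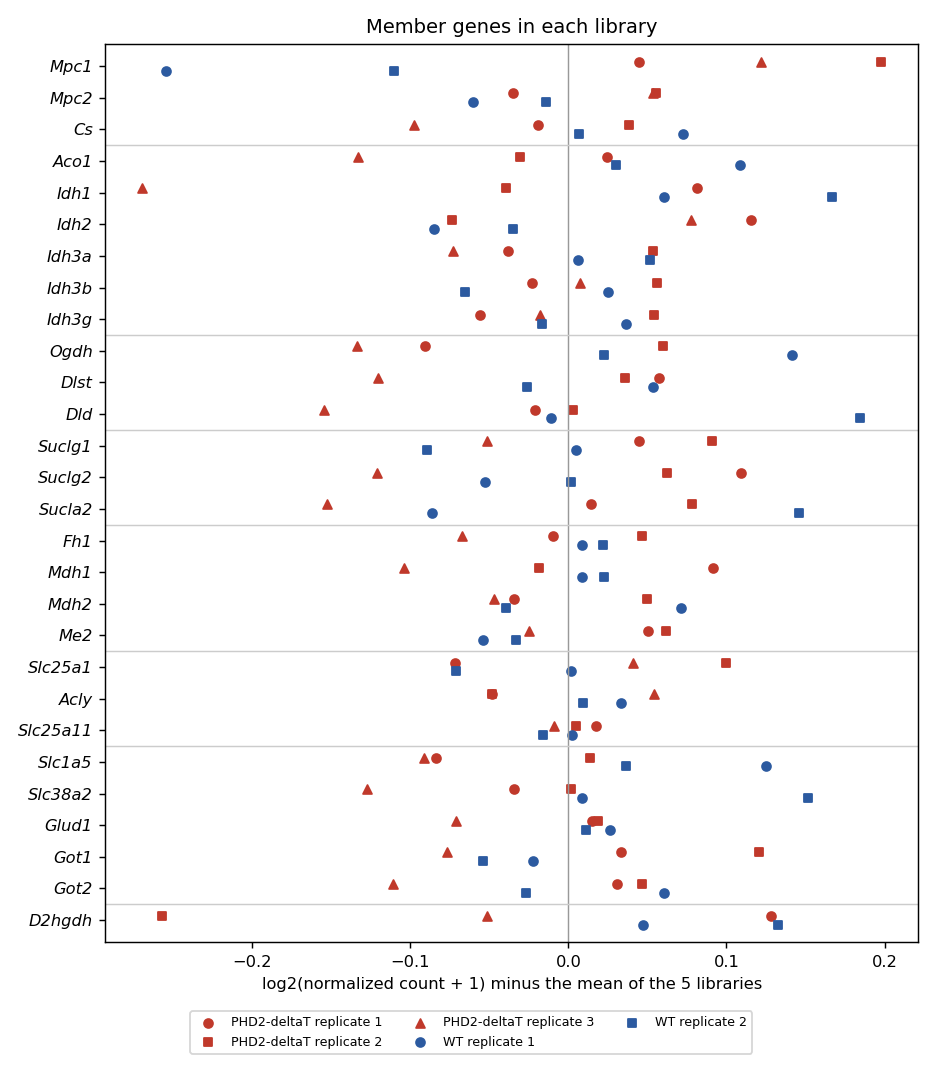
Each member's log2(normalized count + 1) in each library minus its mean over the 5 libraries (x axis), with PHD2-deltaT in red above WT in blue and lines between enzyme groups. The groups overlap for 23 of the 28 members, and red triangles (PHD2-deltaT replicate 3) are the lowest point for 17.

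Levels were compared between members as normalized counts per kilobase of annotated exon. Mdh2 stood highest, at 3303 ± 122 per kb in PHD2-deltaT and 3365 ± 182 in WT (SD, n = 3 and 2), above every other member in every library. Mdh1 (2146 per kb in PHD2-deltaT and 2182 in WT) and Acly (2098 in PHD2-deltaT and 2149 in WT) followed and did not differ beyond their spread. At the low end stood D2hgdh, at 56.0 ± 7.46 per kb in PHD2-deltaT and 61.8 ± 2.60 in WT, and Idh1, at 31.5 ± 3.86 in PHD2-deltaT and 35.8 ± 1.89 in WT. Of the 3 subunits of NAD-linked isocitrate dehydrogenase, Idh3g was at 1332 per kb in PHD2-deltaT and 1347 in WT, Idh3b at 923 in PHD2-deltaT and 902 in WT, and Idh3a at 651 in PHD2-deltaT and 672 in WT. Dlst stood at 373 per kb in PHD2-deltaT and 379 in WT, far below its complex partner Ogdh at 1529 in PHD2-deltaT and 1680 in WT, but its 9.56 kb of exon include long stretches outside its 2.76 kb principal transcript. Per kb of principal transcript Dlst was at 1292 in PHD2-deltaT and 1311 in WT, and Ogdh at 2021 in PHD2-deltaT and 2221 in WT. Mdh2 stayed first and D2hgdh and Idh1 last by either length. The order between them changed: per kb of principal transcript Cs stood at rank 2, Idh3g at rank 3, Mdh1 at rank 4 and Acly at rank 6.

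**Figure D3:**
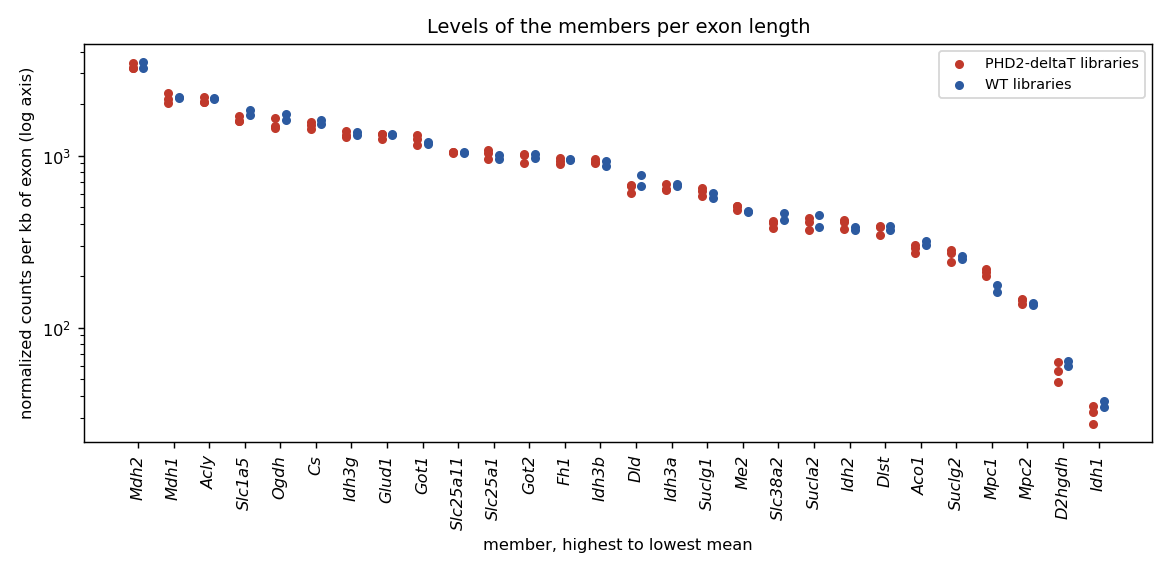
Normalized counts per kb of exon (log axis) for the members in order of their mean, each point 1 library, PHD2-deltaT in red left of WT in blue. Mdh2 averages 3303 per kb in PHD2-deltaT and Idh1 31.5, and the red and blue points of a gene lie close together beside the differences between genes.

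Several members do the same or a paired job, in the same or in different parts of the cell. The ratio of 7 pairs was therefore taken within each library, on the log2(normalized count + 1) scale and without length. The ratio of Idh1 to Idh2 was -3.49, -3.42 and -3.80 in PHD2-deltaT, against -3.31 and -3.25 in WT, lower in all 3 PHD2-deltaT libraries. Mpc1 to Mpc2 was -1.28, -1.22 and -1.29 in PHD2-deltaT, against -1.56 and -1.46 in WT. Got1 to Got2 was -0.61, -0.54 and -0.58 in PHD2-deltaT, against -0.70 and -0.64 in WT. Both ratios were higher in all 3 PHD2-deltaT libraries. The differences of the means, PHD2-deltaT minus WT, were -0.29 for Idh1 to Idh2, 0.24 for Mpc1 to Mpc2 and 0.09 for Got1 to Got2. Without PHD2-deltaT replicate 3 that of Idh1 to Idh2 was -0.17. Ratios of Suclg2 to Sucla2 (difference 0.09), Idh3a to Idh3g (-0.03), Mdh1 to Mdh2 (0.00066) and Slc1a5 to Slc38a2 (-0.00058) overlapped between the groups. With 3 libraries against 2 the two-sided exact permutation test cannot go below p = 0.1, and that value was reached by Mpc1 to Mpc2 and Got1 to Got2. The exact p was 0.2 for Idh1 to Idh2, and adjusted over the 7 pairs the smallest exact p was 0.35.

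**Figure D4:**
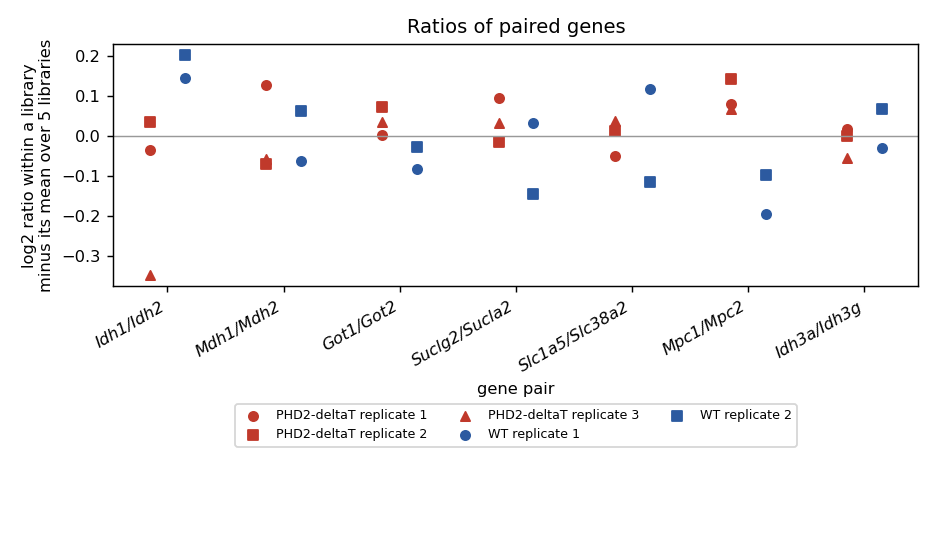
Log2 ratio of 7 gene pairs within a library minus its mean over the 5 libraries (y axis), PHD2-deltaT in red left of WT in blue. Red and blue do not overlap for Idh1/Idh2, Got1/Got2 and Mpc1/Mpc2, with differences of -0.29, 0.09 and 0.24 between the means.

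The wider pathway held a few called genes. Of 11 other TCA, pyruvate entry and anaplerosis genes tested, 1 was higher and 0 lower, against the 2.97% and 1.02% of all genes tested given above. Pck2, the mitochondrial PEP carboxykinase that draws on oxaloacetate, had 378, 399 and 411 normalized counts in PHD2-deltaT libraries, against 296 and 250 in WT. It rose by a log2 fold change of 0.54 ± 0.12 (SE, limma adjusted p = 0.0115), with no overlap between the groups. The call did not hold without WT replicate 2 (limma adjusted p = 0.209) or in limma without the trend (adjusted p = 0.116). Pcx, the pyruvate carboxylase that makes oxaloacetate, was at 119, 85.1 and 106 in PHD2-deltaT, against 73.5 and 63.4 in WT, again without overlap, but did not pass (log2 fold change 0.58, limma adjusted p = 0.146). Sdha and Sdhc, subunits of succinate dehydrogenase, were at -0.08 and -0.08. The groups of Sdha did not overlap, with the PHD2-deltaT values lower, and those of Sdhc overlapped. In the list 2 genes had higher groups without overlap and 2 lower ones. Over the 11534 genes tested this held for 1842 and 1674. The median of the list was -0.03, as for the members, and Me1 and Me3 were not analysed here.

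Of 17 other glutamine and glutamate genes tested, 1 was higher and 0 lower, against 2.97% and 1.02% of all genes tested. The median log2 fold change of the list was 0.01. Asns, the synthetase that moves the amide of glutamine to aspartate to make asparagine, had 824, 1088 and 946 normalized counts in PHD2-deltaT libraries, against 607 and 657 in WT. It rose by 0.58 ± 0.11 (SE, limma adjusted p = 0.00361), a call not made in limma without the trend (adjusted p = 0.174). Gls2, a glutaminase that frees glutamate from glutamine, was scarce, at 46.1, 38.5 and 64.9 in PHD2-deltaT, against 19.1 and 36.7 in WT, and did not pass (limma adjusted p = 0.19). Neither did the mitochondrial alanine aminotransferase Gpt2 (log2 fold change 0.38, limma adjusted p = 0.267) or the glutamine carrier Slc38a1 (-0.17, adjusted p = 0.281). Slc38a1 had 8204, 9203 and 8340 in PHD2-deltaT, against 9750 and 9505 in WT. Its PHD2-deltaT values lay below both WT values, which held for 14.5% of all genes tested. In the list 2 of the 17 genes had lower groups without overlap and 5 higher ones. Over the 11534 genes tested, 1674 had lower groups without overlap and 1842 higher ones.

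For 2-hydroxyglutarate, 1 of 2 other genes tested was higher and 0 lower, against 2.97% and 1.02% of all genes tested. Ldha, a lactate dehydrogenase subunit whose side reaction makes the L form from 2-oxoglutarate, had 53768, 59050 and 56586 normalized counts in PHD2-deltaT libraries, against 37160 and 37140 in WT. It rose by a log2 fold change of 0.60 ± 0.08 (SE, limma adjusted p = 0.00022). Malate dehydrogenases share that side reaction, and Mdh1 and Mdh2 were level as given above. Phgdh, a serine synthesis enzyme that can make the D form, was at 0.15 (interval -0.02 to 0.33). The level of 2-hydroxyglutarate itself was not measured.

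Glycolysis was set beside the members as the pathway just upstream. The list held 18 genes, among them the carriers Slc2a1, Slc2a3 and Slc16a3 beside the enzymes. Of these 18 genes 17 passed the filter on low values. Of the 17, 16 were higher and 0 lower, against 2.97% and 1.02% of all genes tested. Their median log2 fold change was 0.96 against -0.03 for the members. The lowest of the 17 was at 0.37 and the highest member, Mpc1, at 0.30, so the point estimates of the lists did not overlap. The low-value filter left out Eno2. These lists were chosen with earlier results known, and their difference was given no test.

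**Figure D5:**
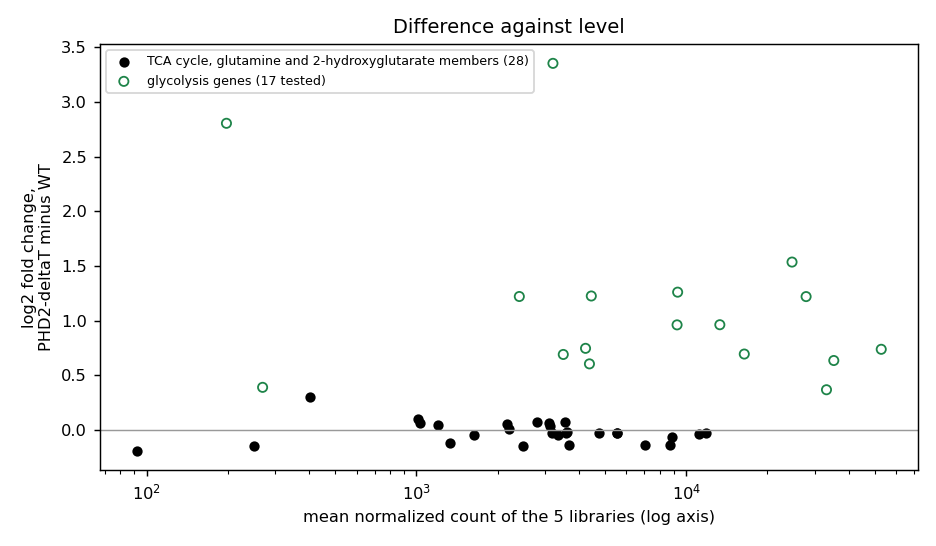
Log2 fold change (PHD2-deltaT minus WT, y axis) against mean normalized count (log x axis) for the 28 members in black and 17 glycolysis genes as green rings. Members lie between -0.19 and 0.30 and glycolysis genes between 0.37 and 3.35, the highest being the carrier Slc16a3. Their ranges of abundance overlap only in part: the members' means reach 11853 (Mdh2) and those of the glycolysis genes 52818 (Pkm).

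HIF binds a short core, ACGTG or GCGTG, and the promoters of the members were searched for it to show whether its letters are there in genes whose RNA was level. The windows run from 250 bases before to 50 after each RefSeq start (GRCm38.p6), both strands were searched, and CACGTG counts as a match on each strand. A promoter was found for 25 members, of which 18 had a match in at least 1 window, which is 72.0%, against 69.2% of the 8475 genes tested that have one and 82.4% of 17 glycolysis genes. Over all windows the share was 75.0% of 32 for the members, 74.1% of 27 for glycolysis genes, 63.3% of 10781 for genes tested and 43.8% of 32851 for all promoters. Ogdh alone gave 6 of the members' windows, some of them overlapping, and each held a match. Counted by gene, the members' share was near that of all genes tested. The 250 bases before the start are shown for the member with the most matches (Slc25a1), for the TCA cycle enzyme with the most (Ogdh, one of its starts) and for the member with the smallest p (Mpc1), with matches in capitals. All 3 were picked after their values were seen.
Slc25a1, chr16:17928220-17928469, minus strand: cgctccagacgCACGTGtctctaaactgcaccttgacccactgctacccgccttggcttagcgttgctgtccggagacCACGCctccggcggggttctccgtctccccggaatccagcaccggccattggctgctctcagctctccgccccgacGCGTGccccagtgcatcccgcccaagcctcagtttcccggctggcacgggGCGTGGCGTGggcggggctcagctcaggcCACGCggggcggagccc
Ogdh, chr11:6291347-6291596, plus strand: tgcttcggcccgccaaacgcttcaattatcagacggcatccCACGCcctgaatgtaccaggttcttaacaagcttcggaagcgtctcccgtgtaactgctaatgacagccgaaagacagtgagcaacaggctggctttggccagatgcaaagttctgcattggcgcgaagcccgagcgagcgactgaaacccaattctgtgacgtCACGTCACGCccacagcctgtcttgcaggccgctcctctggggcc
Mpc1, chr17:8283537-8283786, plus strand: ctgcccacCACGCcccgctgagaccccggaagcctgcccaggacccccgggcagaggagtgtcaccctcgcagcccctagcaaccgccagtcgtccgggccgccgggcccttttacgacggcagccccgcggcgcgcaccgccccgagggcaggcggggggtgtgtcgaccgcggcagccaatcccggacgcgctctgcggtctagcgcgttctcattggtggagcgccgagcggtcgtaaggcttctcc
The printed stretch of Slc25a1 holds 7 matches, that of Ogdh 3 and that of Mpc1 1. Mpc1 also has a window at another start, which held 0 matches. A match is a run of letters and not a shown binding site. The log2 fold changes of the 3 genes were 0.06, -0.14 and 0.30, and none was called.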

How the data were processed

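The mm10 build, HTSeq 0.9.1, STAR 2.5.3 and Trimmomatic 0.36 are named in the submitters' processing notes, with no order. Per the labels' protocols the libraries came from the Ovation SoLo kit and were sequenced paired-end. The authors deposited a normalized signal per gene and library (normalized counts per the file headers), log2 fold changes (WT over PHD2-deltaT, from the library columns) and FDR values, which are adjusted p-values. No source here gives the scaling method or the use of strand. Median-of-ratios scaling applied to the deposited values left them almost unchanged.

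In each library the values were whole multiples of a step (tolerance 1e-06) with gaps like reads multiplied by 1.30, 1.35, 1.55, 1.85 or 1.36 and rounded up, which gave the inferred reads. They are not raw counts, so no count test was run. The filter asked for values of 10 or more in 2 or more libraries. The fit, limma 3.58.1 in R 4.3.3, took log2(value + 1) with genotype as its single term, with 3 residual and 12.8 prior degrees of freedom; the scale understates changes of low genes. The script was also run on simulated counts that gave every gene the same dispersion, unlike real data. No result here rests on that run. Lengths and overlaps came from GENCODE M21 (mm10), promoters from RefSeq. Replicate numbers only name libraries. Members, lists and pairs were chosen with earlier results of these data known. Every member was named, and of the other TCA, glutamine and 2-hydroxyglutarate lists each called gene and up to 4 with the smallest p; glycolysis was given by count and median. From those lists 2 genes are not reported here.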

Additional observations from a re-analysis of the deposited data

How the results depend on the processing

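No member was called under any of the 13 alternatives (pseudocounts of 0.5 and 10, no filter or at least 50, median-of-ratios or quantile scaling, limma without the trend or with robust eBayes, each of the 5 libraries left out); the smallest adjusted p was 0.146, for Mpc1. Median-of-ratios scaling left the values almost unchanged (Mpc1 at 0.303909 against 0.303911), so that alternative was hardly a separate check. The count of members with an interval inside 1.5-fold was 26 to 28 with 1 library left out. Calls over all genes were 461, against 96 without the trend and 244 to 523 with 1 library left out. With 1 library left out the called genes of the other TCA list numbered 0 to 1 (0 without the trend), of the other glutamine list 1 (0), of the 2-hydroxyglutarate list 1 (1) and of glycolysis 15 to 17 (11).

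Signs turned with 1 library left out only for members near 0, whose log2 fold changes then ran from -0.012 to 0.079 (Idh3b), -0.047 to 0.010 (Idh3g), -0.063 to 0.033 (Dlst), -0.0035 to 0.11 (Suclg2), -0.17 to 0.066 (Sucla2), -0.054 to 0.0034 (Fh1), -0.077 to 0.021 (Mdh1), -0.082 to 0.029 (Mdh2) and -0.072 to 0.022 (Got2). Slc25a11 was at -0.0073 under quantile scaling. Ratio differences ran from -0.36 to -0.17 (Idh1/Idh2), 0.0040 to 0.18 (Suclg2/Sucla2), -0.062 to 0.063 (Mdh1/Mdh2), -0.12 to 0.12 (Slc1a5/Slc38a2; 0.022 under quantile scaling) and -0.081 to 0.017 (Idh3a/Idh3g). Per kb of principal transcript, a length added after seeing the data, the WT level ratio of Got1 to Got2 was 0.77 (1.19 per kb of exon) and of Mpc1 to Mpc2 0.38 (1.24). No paired analysis was possible because the labels do not link any PHD2-deltaT library to a WT library. Counting depth limits Idh1 and D2hgdh most.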
